A study of Homo sapiens with 10 samples.

Results

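Alternative promoters that carried H3K27ac in only 1 of 2 prostate cancer cell lines were taken from the protein-coding genes of the GENCODE release 44 annotation. A gene entered when the transcription start site (TSS) of its Ensembl canonical transcript had an H3K27ac peak within 500 bp in both lines, so that its reference promoter was acetylated in each. A further annotated TSS of the same gene was eligible when it lay more than 5000 bp from the canonical TSS and more than 2000 bp from the TSSs of every other gene. Eligible TSSs of a gene with the same peak status and within 500 bp of each other were joined into 1 promoter. Of 28064 eligible alternative promoters in 8084 genes, 3464 in 2248 genes were selected because an H3K27ac peak lay within 500 bp in exactly 1 line. C4-2BER alone had the peak at 1764 of them (6.29% of eligible promoters) and C4-2B alone at 1700 (6.06%), while 4107 eligible promoters had a peak in both lines and 20493 in neither. These counts, the H3K27ac fold enrichments and the direction of each promoter are therefore what the promoters were selected on, and they are given as a description. When peaks needed a −log10 q-value of 5 or more the counts were 1066 and 504, so the near-even split depended on which weak peaks were admitted.

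The line C4-2B comes from castration-resistant human prostate adenocarcinoma. C4-2BER was derived from it by acquired enzalutamide resistance and is kept in the drug, and the study used it as a model of neuroendocrine (NE)-like prostate cancer. Enzalutamide is an antagonist of the androgen receptor. The 2 histone marks H3K27ac and H3K18ac were measured by ChIP-seq, with 2 libraries for each mark and line and 1 input library for each line. Both groups are single cell lines, so that enzalutamide resistance, clonal origin and time in culture cannot be told apart. The replicates were merged by the authors before peaks were called, which left 1 peak list for each mark and line and 1 value per promoter in each list. No replicate error exists for any value below, no test was possible, and the depth of the libraries is unknown.

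Many human genes start transcription at more than 1 place. An alternative promoter can give the same protein with another first exon, a protein that lacks or gains residues at its start, or an RNA without a reading frame. H3K27ac and H3K18ac are acetylated lysines of histone H3, deposited largely by the related acetyltransferases p300 and CBP, and both are found at active promoters and at active enhancers. Neither mark shows by itself that a TSS is used, because many internal TSSs lie in introns or exons where an enhancer could carry the same acetylation.

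As to the whole series, the C4-2BER list of H3K27ac held 72971 peaks and that of C4-2B 68034, and the H3K18ac lists 197948 and 198451. The fold enrichment of a peak is relative to the local background of its own list. A ratio of folds between lines therefore includes any difference in background. At the canonical TSSs of the 8084 genes with an eligible promoter, the median log2 ratio of H3K27ac fold in C4-2BER over C4-2B was −0.54. All 7 luminal prostate markers examined had H3K27ac at the canonical TSS in both lines. Of the NE markers reported here, SYP and ENO2 had it in both, whereas CHGA, NCAM1 and INSM1 had no peak there in either line, the NE-like one included.

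Among the strongest promoters of each direction were those that lay inside an H3K27ac peak unmatched in the other line and that also had an H3K18ac peak only in the same line, and 2 of each direction are shown first, each as 201 bases centred on the TSS, on the strand of the gene, from GRCh38. CG dinucleotides are in capitals, because base composition, which the selection did not use, differed between the directions. The promoters with H3K27ac in C4-2BER only were those of MID1 (chrX:10833554-10833754, minus strand) and TBC1D1 (chr4:38102948-38103148, plus strand).
MID1: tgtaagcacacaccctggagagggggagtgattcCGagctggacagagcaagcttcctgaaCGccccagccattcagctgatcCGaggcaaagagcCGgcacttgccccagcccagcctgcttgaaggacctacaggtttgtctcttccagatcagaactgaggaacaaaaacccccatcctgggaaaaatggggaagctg
TBC1D1: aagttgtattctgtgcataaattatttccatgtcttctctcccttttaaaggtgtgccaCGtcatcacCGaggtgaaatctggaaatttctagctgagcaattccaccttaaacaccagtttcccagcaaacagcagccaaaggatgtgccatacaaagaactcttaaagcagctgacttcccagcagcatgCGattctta
The promoters with H3K27ac in C4-2B only were those of SIPA1L3 (chr19:38164671-38164871, plus strand) and PEPD (chr19:33493320-33493520, minus strand).
SIPA1L3: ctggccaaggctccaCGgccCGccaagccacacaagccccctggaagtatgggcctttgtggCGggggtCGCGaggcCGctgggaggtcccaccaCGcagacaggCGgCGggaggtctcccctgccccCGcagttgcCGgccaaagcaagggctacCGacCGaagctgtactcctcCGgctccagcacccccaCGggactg
PEPD: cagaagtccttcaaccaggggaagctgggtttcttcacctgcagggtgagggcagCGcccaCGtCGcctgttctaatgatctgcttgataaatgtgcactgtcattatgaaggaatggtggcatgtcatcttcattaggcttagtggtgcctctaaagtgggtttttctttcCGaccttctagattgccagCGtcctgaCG
The C4-2BER stretches held 4 and 3 CG dinucleotides at a GC content of 56.2% and 42.8%. The C4-2B stretches held 15 and 6 at 70.6% and 50.2%. The GC content of the 2 directions overlapped here, since PEPD lay between TBC1D1 and MID1. The H3K18ac peak was also unmatched at MID1, while at TBC1D1, SIPA1L3 and PEPD it overlapped an H3K18ac peak that the other line had farther from the TSS.

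MID1, a microtubule-associated ubiquitin ligase, had the highest H3K27ac of all C4-2BER promoters inside a peak unmatched in C4-2B. Its alternative promoter lies 213058 bp upstream of the canonical TSS, and its coding transcripts start at the same codon and encode the same 667 residues. The H3K27ac peak there was 884 bp wide and 9.84-fold enriched, and the H3K18ac peak was 4.50-fold enriched. A stronger H3K27ac peak of C4-2BER, at 11.2-fold, lay from −2524 to −1890 bp of the TSS and so outside the window of 500 bp. C4-2B had no peak of either mark within 15 kb, and its nearest H3K27ac peak was 213151 bp away. At the canonical TSS of MID1 H3K27ac was 6.35-fold in C4-2BER and 4.91-fold in C4-2B, so that the canonical promoter was also the higher in C4-2BER.

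SIPA1L3, a Rap GTPase-activating-like protein, held the same place among the C4-2B promoters. Its TSS lies in exon 15, 257563 bp from the canonical TSS, and starts a retained-intron transcript with no coding sequence. H3K27ac was 9.91-fold in a peak of 4587 bp and H3K18ac 5.79-fold. In C4-2BER neither mark had a peak within 500 bp of it, and the nearest H3K27ac peak lay 5010 bp away. The canonical TSS of SIPA1L3 carried H3K27ac at 15.8-fold in C4-2BER and 23.6-fold in C4-2B.

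**Figure D1:**
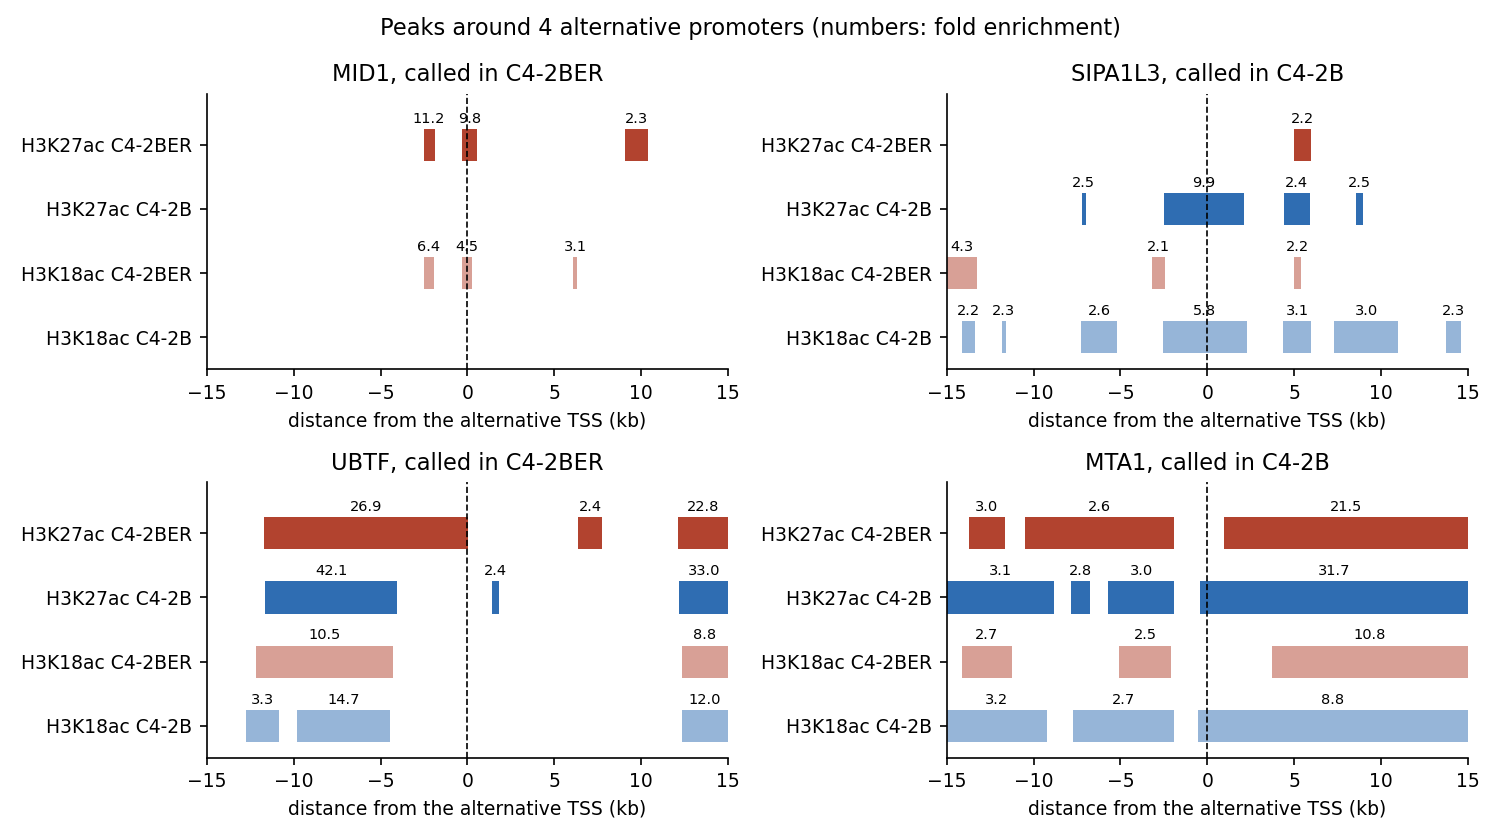
Peaks of the 4 lists within 15 kb of the alternative TSSs of MID1, SIPA1L3, UBTF and MTA1, against distance from the TSS in kb in the direction of transcription; each bar is 1 peak to scale with its fold enrichment above it, and the dashed line is the TSS. At MID1 neither mark had a peak in C4-2B, whereas at UBTF and MTA1 the peak that reached the TSS overlapped a peak of the other line that lay farther from the TSS.

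The map shows 2 ways of meeting the selection, which were told apart after the values were seen. In the first, the H3K27ac peak overlapped no H3K27ac peak of the other line, as at MID1 and SIPA1L3. In the second, the peak overlapped a peak of the other line, but in only 1 line did it come within 500 bp of the TSS. UBTF, a transcription factor of RNA polymerase I, had the highest fold of all C4-2BER promoters this way. Its C4-2BER peak at 26.9-fold ran 11768 bp from the alternative TSS over the canonical TSS, where C4-2B had the higher fold of 42.1 in a peak that ended short of the alternative TSS. MTA1, a subunit of the NuRD repressor complex, had the highest fold of the C4-2B promoters, 31.7 in a peak of 17684 bp, and a C4-2BER peak of 21.5-fold started 968 bp from its TSS.

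Unmatched peaks made up 1114 of 1764 C4-2BER promoters (63.2%, 95% Wilson interval 60.9 to 65.4%) and 1173 of 1700 C4-2B promoters (69.0%, 66.8 to 71.2%). The other 650 and 527 promoters lay at the edge of a shared peak, and in 63 and 46 of these the same peak also reached the canonical TSS. Intervals cover counting error only, since peaks of 1 pooled list are not independent samples. The share of unmatched peaks fell with enrichment. In C4-2BER it was 80.3% of the 1127 promoters under 3-fold, 58.6% of 239 from 3- to 4-fold, 33.9% of 174 from 4- to 6-fold, 6.62% of 151 from 6- to 10-fold and 0 of 73 from 10-fold, which allows up to 4.11%. In C4-2B it was 81.3% of 1262, 56.3% of 190, 37.0% of 92, 9.84% of 61 and 0 of 95, which allows up to 3.16%.

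Most promoters with an unmatched peak were thus weakly enriched. Their H3K27ac had a median fold of 2.37 in C4-2BER and of 2.51 in C4-2B, as compared to 4.04 and 3.11 at the edge of a shared peak. The unmatched peaks had a median width of 920.5 bp in C4-2BER and of 920 bp in C4-2B, and of the shared ones 3634.5 and 3674 bp. The highest enrichments of any C4-2BER promoter after UBTF lay at shared edges: PIK3R1, the regulatory subunit of PI3-kinase, at 23.4-fold, BCOR, a BCL6 corepressor, at 21.4-fold, MYO19, a mitochondrial myosin, at 20.2-fold, EBF4, an early B-cell factor, at 19.7-fold, and the receptor tyrosine kinase ERBB2 at 16.8-fold. The same held for C4-2B after MTA1, with ANAPC2, a subunit of the anaphase-promoting complex, at 28.9-fold, PROM2, a prominin, at 28.3-fold, the proprotein convertase PCSK4 at 26.2-fold and CCDC57 at 23.9-fold. Calls at such edges depended on the window. With 1000 bp those of MTA1, MYO19, ERBB2, ANAPC2, PROM2 and 1 promoter of PCSK4 ended, because both lines then had a peak, and with a window of 250 bp those of HADHB, CRYBG2 and SEMA4D did, because neither line then had one.

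**Figure D2:**
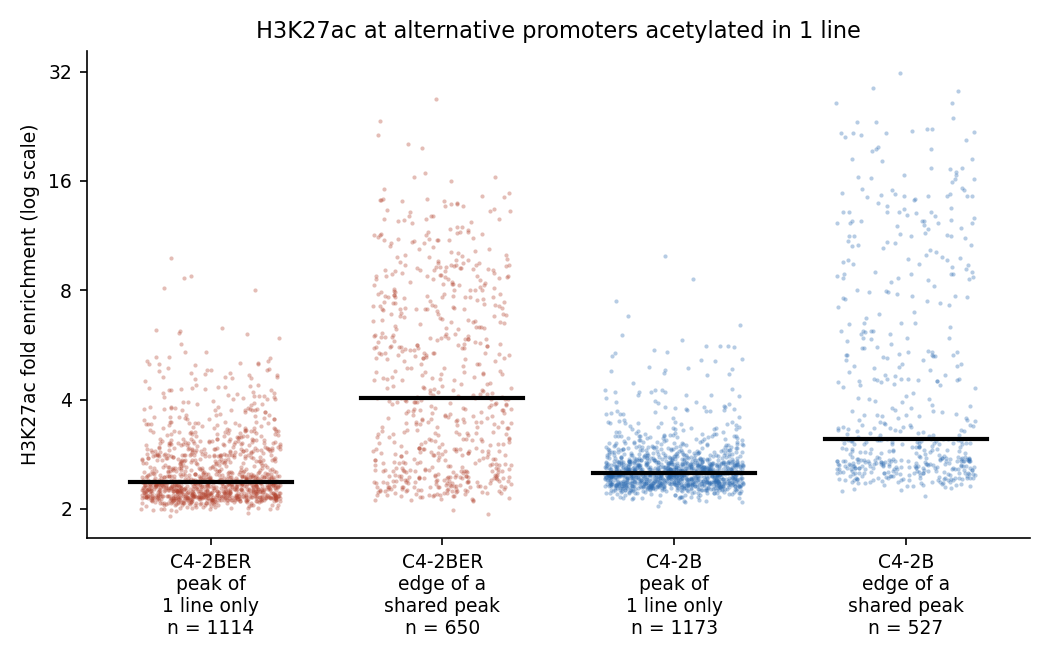
H3K27ac fold enrichment on a log scale of every promoter with the mark in 1 line, split by line and by whether the peak was unmatched in the other line (peak of 1 line only) or the edge of a shared peak; points are promoters and black bars are medians. No promoter called by an unmatched peak reached 10-fold in either line, whereas 73 C4-2BER and 95 C4-2B promoters at shared edges did.

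The promoters were not independent of each other. The 1764 C4-2BER promoters rested on 1613 H3K27ac peaks, of which 132 served several promoters, and the 1700 C4-2B promoters on 1477, of which 192 did. PLEKHH1 had the most C4-2BER promoters of any gene, 8, and TSC2, the tuberous sclerosis tumour suppressor, had the most C4-2B promoters, 9. Promoters of both directions occurred in 236 genes, which were 17.7% of the 1330 genes with a C4-2BER promoter and 20.5% of the 1154 genes with a C4-2B promoter.

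The promoters nearest the thresholds show what the limits kept and left out. SMARCD3, a SWI/SNF subunit, was just inside the canonical distance at 5008 bp with 11.6-fold H3K27ac in C4-2BER, and COQ6 at 5028 bp with 2.16-fold in C4-2B. RFXANK at 4997 bp with 2.34-fold and GRB7 at 4996 bp with 2.14-fold were just outside. A peak 500 bp from a TSS of COG7 at 6.95-fold counted and 1 at 502 bp from PHLDB1 at 5.42-fold did not. A TSS of the deubiquitinase gene USP4 with a C4-2BER peak of 13.5-fold was left out at 1999 bp from another gene.

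H3K18ac was not used to choose the promoters. Of the 3464, 1350 (39.0%, 37.4 to 40.6%) had an H3K18ac peak within 500 bp in the same line only and 226 (6.52%, 5.75 to 7.40%) in the other line only. Among the C4-2BER promoters, 457 (25.9%, 23.9 to 28.0%) had H3K18ac in C4-2BER only, against 5.46% of all eligible promoters, and 205 (11.6%) had it in C4-2B only, against 13.1%. Among the C4-2B promoters, 893 (52.5%, 50.2 to 54.9%) had it in C4-2B only, against that 13.1%, and 21 (1.24%) in C4-2BER only, against that 5.46%. The share with H3K18ac in the matching line was thus above the background in both directions, and the share with it in the opposite line was near the background for C4-2BER promoters and below it for C4-2B promoters. H3K18ac was present in both lines at 588 C4-2BER promoters (33.3%) and 479 C4-2B promoters (28.2%), and in neither at 514 (29.1%) and 307 (18.1%).

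Where both lines had H3K18ac, its level also differed by direction. The median log2 ratio of H3K18ac fold, C4-2BER over C4-2B, was 0.07 at the 588 C4-2BER promoters, with 58.5% higher in C4-2BER. At the 479 C4-2B promoters it was −0.25, with 16.9% higher in C4-2BER. Over all 5748 eligible promoters with both peaks it was −0.11, with 36.0% higher.

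H3K18ac called in 1 line only was, like H3K27ac, in part the edge of a shared peak. The H3K18ac peak overlapped no H3K18ac peak of the other line at 280 of the 457 C4-2BER promoters (61.3%) and at 535 of the 893 C4-2B promoters (59.9%), close to the 61.1% and 62.4% among all eligible promoters with H3K18ac in that line only. These 280 and 535 were 15.9% and 31.5% of all promoters of their direction, against 3.34% and 8.17% of eligible ones. The single highest H3K18ac value of this kind in each direction lay at a shared edge, which did not hold for every high value. RACK1, a ribosomal scaffold protein, had 7.24-fold in C4-2BER, and RNPEPL1, an aminopeptidase-like protein, had 9.44-fold and FASN, the fatty acid synthase, 7.73-fold in C4-2B. Their canonical TSSs had the same value in that line, and H3K18ac in the other line of 8.31-fold at RACK1, 8.28-fold at RNPEPL1 and 9.21-fold at FASN. HADHB, a subunit of the mitochondrial trifunctional protein, at 6.29-fold in C4-2BER, and CRYBG2, at 9.21-fold in C4-2B, had such edges as well.

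**Figure D3:**
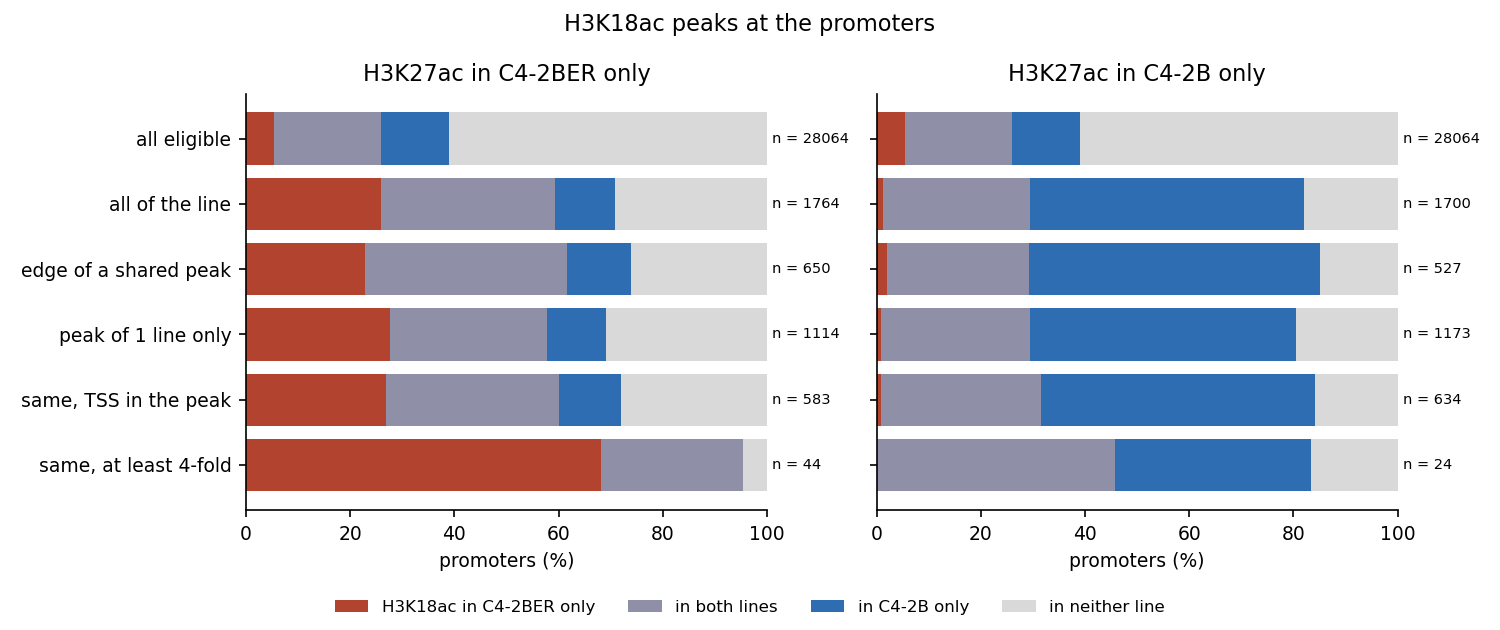
Share of promoters in percent with an H3K18ac peak in C4-2BER only, in both lines, in C4-2B only or in neither, for the promoters with H3K27ac in C4-2BER only (left) and in C4-2B only (right); rows are all eligible promoters and then narrower sets of each direction with their numbers. H3K18ac restricted to C4-2BER covered 25.9% of all C4-2BER promoters and 68.2% of the 44 strongest ones inside an unmatched peak.

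A TSS lay inside an unmatched peak at 583 C4-2BER promoters and 634 C4-2B promoters, and at 44 and 24 of these H3K27ac was at least 4-fold. H3K18ac was restricted to C4-2BER at 30 of the 44 (68.2%, 53.4 to 80.0%), present in both lines at 12, in neither at 2 (PANK3 and THADA) and in C4-2B only at 0, which allows up to 6.82%. In 11 of the 12 with H3K18ac in both lines it was higher in C4-2BER. Of the 24 C4-2B promoters, 9 (37.5%, 21.2 to 57.3%) had H3K18ac in C4-2B only, 11 in both lines, 4 in neither and 0 in C4-2BER only, which allows up to 12.5%. None of the 11 was higher in C4-2BER. The H3K18ac peak overlapped no H3K18ac peak of the other line at 22 of the 30 and at 6 of the 9, and was the edge of a shared one at the other 8 and 3.

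TBC1D1, a Rab GTPase-activating protein of glucose transport, followed MID1 in C4-2BER at 8.77-fold H3K27ac and 4.52-fold H3K18ac, in exon 17 of the canonical transcript. GSTM2, a mu-class glutathione transferase, had 8.62-fold and 5.00-fold at a TSS beyond the end of the canonical transcript. The gene lies in a cluster of similar paralogs, between which reads may be split, so its values are uncertain. MIA3, which loads collagen for export from the endoplasmic reticulum, had 8.01-fold and 4.21-fold in intron 26. None of these 3 genes had a peak of either mark in C4-2B within 500 bp, and at all 3 the canonical TSS had the higher H3K27ac fold in C4-2B.

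RGS17, a regulator of G-protein signalling, had 6.23-fold H3K27ac and 4.51-fold H3K18ac at a TSS in exon 2, 87239 bp from the canonical TSS. Its transcript keeps the start codon and all 210 residues. CSRP1, a LIM-domain protein, had 6.17-fold H3K27ac in intron 1, also at a transcript with the canonical protein of 193 residues. H3K18ac was present there in both lines, at 3.06-fold in C4-2BER and 2.35-fold in C4-2B. DEK, a chromatin architectural protein, had 5.41-fold H3K27ac and 4.90-fold H3K18ac in exon 5. SIK2, a salt-inducible kinase, had 5.21-fold H3K27ac with H3K18ac at 3.82-fold in C4-2BER and 2.87-fold in C4-2B.

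Some of these C4-2BER promoters start a coding transcript for a shorter protein. CTNNA1, the alpha-catenin of adherens junctions, had 4.90-fold H3K27ac and 3.27-fold H3K18ac in intron 7, at a transcript of 50 residues against 906. CD44, the hyaluronan receptor, had 4.62-fold and 2.67-fold in exon 3, at a transcript of 194 against 742 residues. The C4-2BER peak at CD44 was 424 bp wide, and the canonical TSS had 3.45-fold in C4-2BER and 2.64-fold in C4-2B. Its call ended with a window of 250 bp, within which its canonical TSS had no C4-2BER peak. It also ended with only peaks of at least 4-fold or with a −log10 q-value minimum of 5. The alternative peak of CD44 itself passed both of these limits, which also applied at the canonical TSS. SGPL1, sphingosine-1-phosphate lyase, and OPTN, an autophagy receptor, had 4.83- and 4.68-fold H3K27ac at transcripts that the annotation marks as incomplete at the start, so that their TSSs are uncertain.

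Regulators of transcription and signalling occurred among the 44, and the genes of this paragraph were chosen after their values were seen. EP300, which encodes the p300 acetyltransferase of both histone marks, had 2 internal promoters within 1 C4-2BER peak of 6201 bp, with H3K27ac at 4.30-fold and H3K18ac at 2.72-fold in C4-2BER only. At the canonical TSS of EP300 H3K27ac was 20.7-fold in C4-2BER and 38.5-fold in C4-2B. YAP1, the Hippo pathway coactivator, had 4.34-fold H3K27ac and 3.34-fold H3K18ac in intron 7, and KDM5A, an H3K4 demethylase, had 4.69-fold and 3.38-fold in exon 23. HBEGF, a ligand of the EGF receptor, had 4.17-fold and 3.82-fold. SMAD1, a transducer of BMP signals, had 4.25-fold H3K27ac with H3K18ac in both lines, at 3.94-fold in C4-2BER and 2.98-fold in C4-2B. SYN2, a synaptic vesicle protein, had 4.27-fold H3K27ac and likewise H3K18ac in both lines, at 3.84-fold and 3.24-fold.

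In C4-2B, ZBTB7C, a zinc-finger transcription factor, followed SIPA1L3 at 8.59-fold H3K27ac. Its H3K18ac was 7.44-fold in C4-2B and 2.80-fold in C4-2BER. DOCK8, an exchange factor for CDC42, had 5.83-fold H3K27ac, with H3K18ac at 4.26-fold in C4-2B and 2.55-fold in C4-2BER. MTG2, a GTPase of mitochondrial ribosomes, had 5.42-fold H3K27ac and 3.90-fold H3K18ac, and PEPD, the prolidase, had 5.37-fold and 3.49-fold, both with H3K18ac in C4-2B only. CERT1, the ceramide transfer protein, had 5.63-fold H3K27ac and no H3K18ac peak in either line, at a transcript incomplete at the start. ITGA11, an integrin alpha chain, had 5.14-fold H3K27ac, with H3K18ac at 4.25-fold in C4-2B and 2.33-fold in C4-2BER.

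RTN1, a reticulon of neuronal and NE cells, had H3K27ac at its alternative promoter in C4-2B rather than in the NE-like line. H3K27ac was 4.66-fold at 3 joined TSSs in intron 3, 239962 bp from the canonical TSS, where the coding transcript encodes 208 of 776 residues. H3K18ac was 6.21-fold in C4-2B and 3.37-fold in C4-2BER, and the canonical TSS had H3K27ac of 5.18-fold and 2.77-fold. BMPR1B, a type I BMP receptor, had 4.25-fold H3K27ac at a transcript with 532 residues, longer than the canonical 502. At its canonical TSS H3K27ac was 30.9-fold in C4-2B and 4.88-fold in C4-2BER, which differed far more than the median gene. SIN3B, a scaffold of histone deacetylase complexes, had 4.04-fold H3K27ac and 2.84-fold H3K18ac in C4-2B only.

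**Figure D4:**
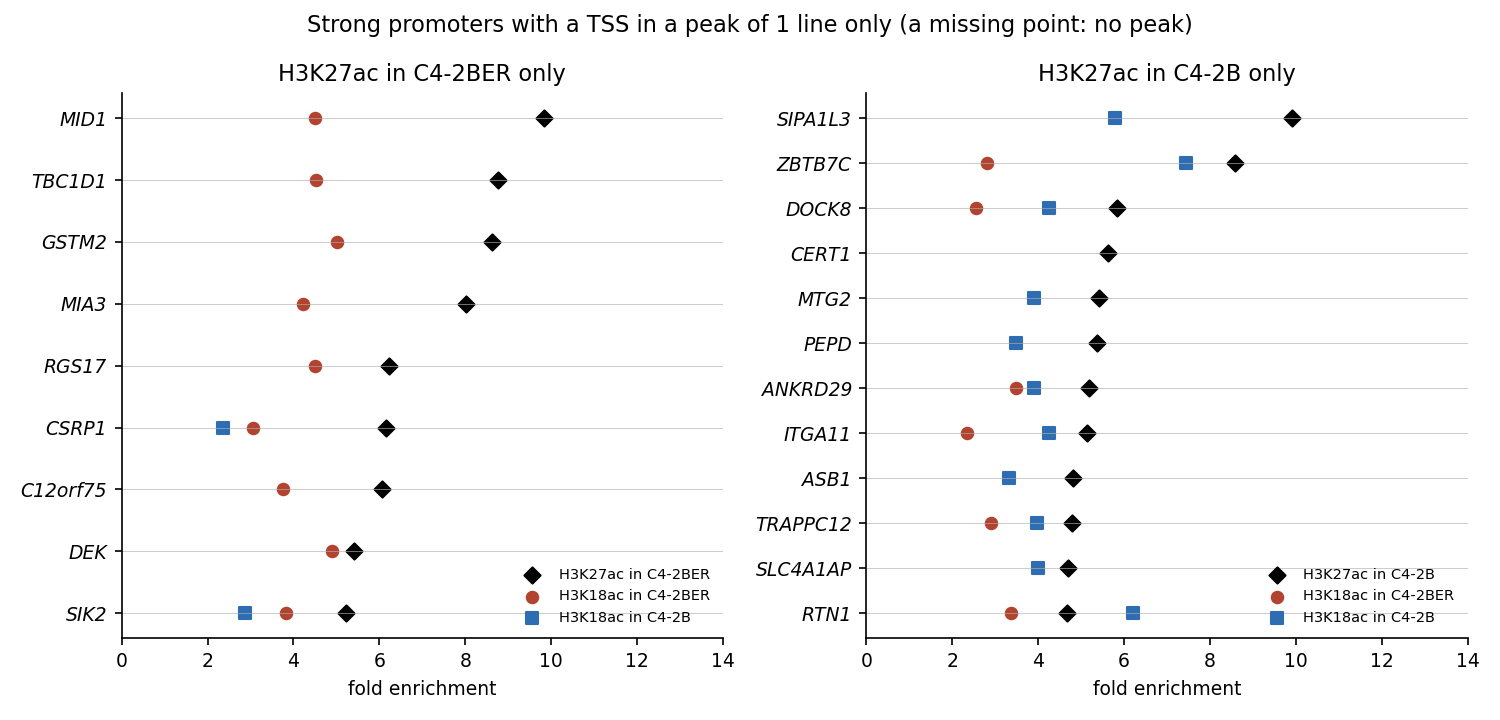
Fold enrichment of H3K27ac (diamonds) and of H3K18ac in C4-2BER (circles) and C4-2B (squares) at strong promoters whose TSS lay inside an H3K27ac peak unmatched in the other line, by gene; a missing point means that no peak was called. Of the 9 C4-2BER genes shown, CSRP1 and SIK2 had an H3K18ac peak in C4-2B, each lower than that in C4-2BER.

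The canonical promoters of the selected genes followed the general difference between the H3K27ac lists. The median log2 ratio of H3K27ac fold at the canonical TSS, C4-2BER over C4-2B, was −0.54 for genes with a C4-2BER promoter, of which 12.3% were higher in C4-2BER. It was −0.55 for genes with a C4-2B promoter, of which 7.97% were higher, and −0.54 for all genes with an eligible promoter, of which 11.1% were higher. For the 42 genes of the 44 C4-2BER promoters the median was −0.47 with 28.6% higher, and for the 22 genes of the 24 C4-2B promoters −0.66 with 9.09% higher. The medians over all genes of each direction were thus near that of all genes with an eligible promoter, and single genes such as BMPR1B were far from it.

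Base composition separated the 2 directions. In the 1001 bases around the TSS the median GC content was 48.0% at C4-2BER promoters and 57.1% at C4-2B promoters, as compared to 55.4% at eligible promoters with H3K27ac in both lines and 41.0% at those with it in neither. The ratio of observed to expected CG dinucleotides had a median of 0.25 and 0.33. Few were like CpG islands (GC over 55% and a ratio over 0.65): 1.08% of C4-2BER promoters and 1.65% of C4-2B promoters, against 6.38% of those with H3K27ac in both lines. The canonical promoters of the same genes had a median GC content of 66.2% and 68.0%. Within the 236 genes with promoters of both directions, the mean GC content of the C4-2B promoters was the higher in 157 (66.5%), by a median of 2.92 percentage points over all 236.

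When eligible promoters were ranked by GC content and divided into quintiles, C4-2BER promoters made up 72.6%, 71.0%, 77.9% and 62.4% of the selected promoters in the lower quintiles and 24.5% in the highest one. The highest quintile held 1064 of the 1700 C4-2B promoters and 345 of the 1764 C4-2BER promoters. H3K18ac restricted to C4-2BER was found at 57.3%, 50%, 36.9%, 17.2% and 1.74% of the C4-2BER promoters from the lowest to the highest quintile, against 2.62%, 6.89%, 10.8%, 6.68% and 0.357% of all eligible promoters. H3K18ac restricted to C4-2B was found at 22.6%, 26.3%, 28.5%, 44.4% and 61.7% of the C4-2B promoters, against 0.707%, 2.43%, 5.17%, 19.4% and 38.0%. In each quintile the share in the matching line was above that of all eligible promoters, and that background itself moved with GC content in the same way for C4-2B. GC content also affects the recovery of sequenced fragments, and its part in the difference between the lists was not tested.

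**Figure D5:**
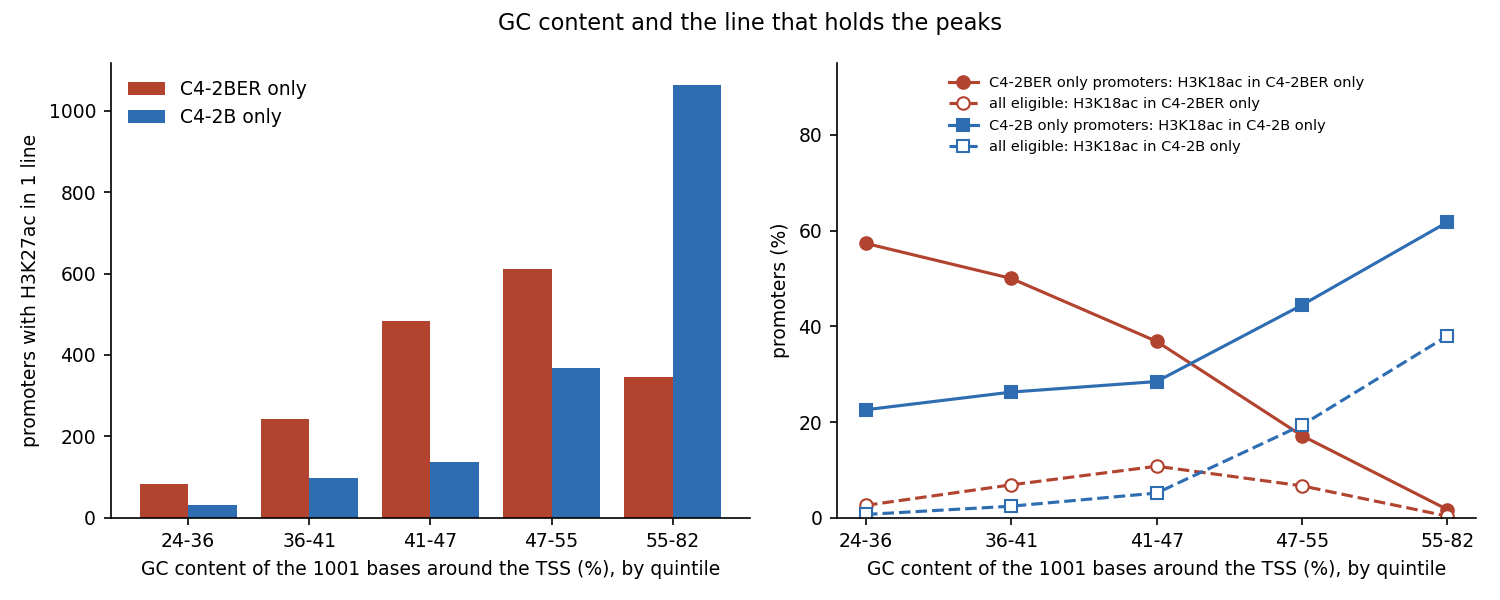
Left, number of promoters of either direction by quintile of GC content of all eligible promoters (1 is the lowest); right, percent of these promoters with H3K18ac restricted to the same line (filled) and the same percent in all eligible promoters (open). In the highest quintile C4-2B promoters outnumbered C4-2BER promoters by 1064 to 345.

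DNA motifs were counted as letters within the same 1001 bases on either strand. The E-box letters CAGCTG were found in 47.8% of C4-2BER and 59.6% of C4-2B promoters, against 40.9% of eligible ones. The forkhead letters TGTTTAC, a match to factors such as FOXA1, were found in 12.6% and 6.47%, against 13.5%. The AP-1 letters TGANTCA were found in 26.7% and 20.1%, against 25.9%, and the steroid receptor letters AGAACA in 53.2% and 45.2%, against 55.3%. The ETS letters CCGGAAGT were found in 1.08% and 1.29%, against 0.848%. The directions also differed in GC content, and within its quintiles the gaps varied in size and direction. From the lowest to the highest quintile CAGCTG was in 28.0%, 33.1%, 41.6%, 50.7% and 66.4% of C4-2BER promoters and in 19.4%, 25.3%, 38.0%, 55.8% and 68.1% of C4-2B promoters. TGTTTAC was in 31.7%, 22.7%, 14.3%, 8.66% and 5.80% as compared to 22.6%, 16.2%, 12.4%, 8.94% and 3.48%. TGANTCA was the less frequent at C4-2BER promoters in the lowest quintile, in 25.6% as compared to 32.3%, and the more frequent in the middle one, in 31.7% as compared to 24.1%, and in the highest quintile it was in 17.1% and 17.2%. The lowest quintile held only 82 and 31 promoters of the 2 directions.

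C4-2BER promoters lay farther from the canonical TSS, at a median of 30022 bp, as compared to 23686 bp for C4-2B promoters and 36626 bp for all eligible ones. In C4-2BER 62.5% lay in an intron and 33.7% in an exon of the canonical transcript, and in C4-2B 57.4% and 39.9%, against 58.9% and 36.3% of eligible ones. The first intron held 11.1% of C4-2BER promoters and 6.41% of C4-2B promoters, against 8.60%, and 3.17% and 2.18% lay upstream of the gene, against 3.76%. Transcripts without an annotated protein made up most of both sets: 69.9% of C4-2BER and 72.1% of C4-2B promoters started no protein_coding transcript, against 69.7% of eligible ones. Retained-intron transcripts, with no coding transcript or decay target beside them, started at 36.5% and 42.8%, against 35.4%. The annotation marked every transcript as incomplete at its start for 14.5% and 15.4%, against 16.2%, and the TSSs of these are uncertain.

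Where a coding transcript used another start codon, its share and length were close to the background of eligible promoters, while the canonical start was kept less often in C4-2B. Of the C4-2BER promoters 119 (6.75%) kept the canonical start codon and 412 (23.4%) used another, 400 of the latter with a shorter product. Of the C4-2B promoters 72 (4.24%) kept it and 402 (23.6%) did not, 381 with a shorter product. Of all eligible promoters 1714 (6.11%) kept it and 6778 (24.2%) did not, 6509 with a shorter product. The median coding length from another start was 34.5% and 32.8% of the canonical one, against 34.0%. PDE11A, a dual-specificity phosphodiesterase, was such a case in C4-2BER, with 683 of 933 residues and H3K27ac at 7.26-fold at the edge of a shared peak. MAPT, the microtubule protein tau, kept its start in C4-2B at a weak peak of 2.26-fold.

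Among the gene lists, that of 18 cell adhesion genes had promoters of the C4-2BER direction alone. The integrin gene ITGA11, which had a C4-2B promoter, was not on this list. Of the 80 eligible promoters of the listed genes 10 (12.5%) had H3K27ac in C4-2BER only, in 7 genes. In C4-2B only it was 0, which allows up to 3.75%. The background over all eligible promoters was 6.29% and 6.06%. The 80 had a median GC content of 45.7%, which lies in the middle GC quintile. In that quintile 483 of 5604 eligible promoters were C4-2BER only and 137 C4-2B only. The part of GC content in the counts of this list was not tested. CD44 led the list, although its call ended with a window of 250 bp. NCAM2, a neural adhesion molecule, had 3.44-fold without H3K18ac. CDH1, E-cadherin, had 3.35-fold at the edge of a shared peak and at a transcript incomplete at its start. Its H3K18ac was 2.64-fold, in C4-2BER only. Axon guidance genes had 8 and 14 of 145 (5.52% and 9.66%). PLXNB2, a semaphorin receptor, led them at 13.1-fold in C4-2B, at the edge of a shared peak. SEMA4D, a semaphorin, had 9.09-fold in C4-2BER, also at a shared edge. Its H3K18ac of 5.78-fold in C4-2BER only was likewise the edge of a shared H3K18ac peak. Receptor tyrosine phosphatases had 1 and 4 of 56 (1.79% and 7.14%). PTPRK was the C4-2BER one, with 4.84-fold H3K27ac and 4.01-fold H3K18ac, both in C4-2BER only.

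The other lists reported here had promoters of both directions, and their shares are read against the background of 6.29% and 6.06%. Ion channels had 9 and 10 of 166 eligible promoters (5.42% and 6.02%), with CACNB2, a calcium channel subunit, at 4.25-fold in C4-2BER. H3K18ac at this CACNB2 promoter was in both lines, at 3.95-fold in C4-2BER and 4.24-fold in C4-2B. Cyclic nucleotide phosphodiesterases had 4 and 2 of 52 (7.69% and 3.85%). Cytoskeletal linkers had 3 and 2 of 147 (2.04% and 1.36%), and zinc finger genes 17 and 11 of 436 (3.90% and 2.52%). Transcription factors with known alternative promoters had 6 and 11 of 207 (2.90% and 5.31%). Among them FOXP1, a forkhead repressor, had 3.51-fold in C4-2B but H3K18ac in C4-2BER only, at 2.26-fold. Targets of the androgen receptor had 5 and 8 of 66 (7.58% and 12.1%). NDRG1 had 8.02-fold in C4-2BER and PMEPA1, an inhibitor of TGF-beta signalling, 6.19-fold in C4-2B, both at the edge of a shared peak. The 3 eligible promoters of TMPRSS2 and the 1 of KLK2 had H3K27ac in both lines.

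NE and neuronal genes had 2 C4-2BER promoters and 1 C4-2B promoter of 30. ENO2, the neuron-specific enolase, had 14.3-fold H3K27ac in C4-2BER at the edge of a shared peak of 26021 bp. That peak began between its 2 joined TSSs and ran away from the canonical TSS, and the fold is that of the whole peak. H3K18ac within 500 bp of these TSSs was 1.89-fold in C4-2BER and 2.14-fold in C4-2B. The canonical TSS of ENO2 had H3K27ac of 7.30-fold in C4-2BER and 4.00-fold in C4-2B. NFASC, a neural adhesion molecule, had 2.92-fold H3K27ac in C4-2BER in an unmatched peak that did not hold its TSS. Its H3K18ac was present in both lines, at 2.99-fold in C4-2BER and 3.13-fold in C4-2B. RTN1 was the C4-2B one.

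Unmatched peaks of both lines occurred at different promoters of the same gene in 47 genes with a TSS inside each peak, which were 9.18% of the C4-2BER and 9.16% of the C4-2B genes of this kind. CCDC57 had 4.10-fold in C4-2BER and 3.45-fold in C4-2B at its respective promoters. SEPTIN8, a cytoskeletal GTPase, had 3.42-fold and 2.82-fold, CSRP1 had 6.17-fold and 2.62-fold, and SMAD3, a transducer of TGF-beta signals, had 3.05-fold and 2.51-fold. At the edges of shared peaks CHD3, a NuRD remodeler, had 9.97-fold at its C4-2BER promoter in intron 37 and 6.50-fold at its C4-2B promoter in intron 20, and H3K18ac at both was in C4-2B only, at 2.31-fold and 4.82-fold. DIXDC1, a positive regulator of Wnt signalling, had 5.96-fold at its C4-2BER promoter, also at a shared edge. Its C4-2B promoter had 5.58-fold in an unmatched peak that did not hold the TSS. H3K18ac at DIXDC1 was restricted to the matching line at each promoter, at 3.98-fold and 3.42-fold.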

How the data were processed

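The authors aligned the ChIP-seq reads to GRCh38 with bowtie2 (version 2.2.3 in the submitters' processing notes), removed duplicates and low-quality or blacklisted alignments, merged the replicates and called broad peaks with macs2, whose settings are not given in the sources used here. The 4 deposited lists give each peak a fold enrichment, a ratio to local background, and a −log10 q-value. From these, python 3.11.15 scripts with numpy 2.4.6 and pandas 2.3.3 assigned peaks to TSSs of GENCODE release 44 and took the highest fold within 500 bp. The scripts were tested on simulated data. The members and gene lists were chosen with earlier results of these data known. Named promoters were the 8 of highest H3K27ac fold per direction, the next 4 of highest H3K18ac restricted to the same line, up to 6 genes of both directions, up to 4 genes per list and those nearest the thresholds. Promoters inside unmatched peaks, and their sequences in place of those first planned, were added after the data were seen. Alternatives varied the window, peak strength, distances, transcript type and joining. Some genes, lists and sequences are not reported here. No test was made.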

Additional observations from a re-analysis of the deposited data

How the results depend on the processing

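The counts of C4-2BER and C4-2B promoters were 1764 and 1700, the C4-2BER share 50.9% and the share with H3K18ac in the same line only 39.0%. Windows of 250 and 1000 bp, larger distances from the canonical TSS or from other genes, and joining TSSs first moved none of these 4 values beyond 1.5 times or the counting interval. With only peaks of at least 4-fold the counts were 770 and 540 and the shares 58.8% and 31.5%. With a −log10 q-value minimum of 5 for peaks the counts were 1066 and 504 and the C4-2BER share was 67.9%. With equal numbers of the highest-fold peaks the shares were 46.6% and 40.7%. With no peak within 2000 bp in the other line the counts were 1037 and 990 and the H3K18ac share was 41.6%. With protein_coding transcripts only the counts were 531 and 476 and the shares 52.7% and 35.4%. In settings chosen after the data were seen, unmatched peaks gave 1114 C4-2BER promoters and a share of 48.7%, and such peaks holding a TSS gave 583 and 634 promoters and a share of 47.9%. The C4-2BER share thus lay on either side of an even split depending on the peaks admitted, and the cause was not tested. Of 127 promoters named by rule, the call ended at 16 with 250 bp, 32 with 1000 bp, 44 with at least 4-fold, 25 with the q-value minimum, 52 with no peak within 2000 bp, 25 over 10 kb from the canonical TSS, 27 over 5 kb from other genes, 78 with protein_coding transcripts, 3 when joined first, 54 with unmatched peaks and 67 with such peaks holding a TSS. It ended at 0 with equal numbers and reversed at 0. Among those described, CD44, CRYBG2, HADHB and SEMA4D were lost at 250 bp, ANAPC2, CDH1, CHD3, CRYBG2, the C4-2BER promoter of DIXDC1, ERBB2, MTA1, MYO19, 1 promoter of PCSK4, PLXNB2, PROM2 and SEMA4D at 1000 bp, and CD44, COQ6, DOCK8, GSTM2, ITGA11, MAPT, NFASC and RNPEPL1 with the q-value minimum. That minimum also applied to the peaks at the canonical TSS. The alternative peaks of CD44, DOCK8, GSTM2, ITGA11 and NFASC themselves passed it. The median GC content stayed lower at C4-2BER than at C4-2B promoters in all 13 settings, at 46.6 to 49.7% against 55.3 to 57.6%. Leaving out a replicate was not run because each list already pools its replicates. No paired analysis was possible because each mark and line had 1 pooled list. The depth of the lists is unknown, so a missing peak may lie below the calling threshold.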

Other observations

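The C4-2BER share differed between chromosomes. It is given beside the median GC content of all eligible promoters of the chromosome, and a relation between them was not tested. Chromosome 19 had 86 C4-2BER and 230 C4-2B promoters of 1384 eligible ones, a C4-2BER share of 27.2% at a median GC content of 56.2%. Chromosome 15 had 82 and 38 of 1155, a share of 68.3% at a median of 42.8%. On chromosome 22 there were 56 and 77 of 643, a share of 42.1% at 54.0%. Chromosome 13 had 11 and 20 of 450, a share of 35.5% at 39.1%, and chromosome 21 had 13 and 27 of 289, a share of 32.5% at 46.8%. The shares of these 2 chromosomes rest on few promoters.

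A TATA-like sequence upstream of the TSS was found at 1.08% of C4-2BER and 0.235% of C4-2B promoters, against 1.35% of all eligible ones. The next genes were chosen after their values were seen. IQGAP2, a scaffold protein, resembled BMPR1B in that its canonical TSS also had much more H3K27ac in C4-2B, 23.4-fold against 6.74-fold, beside its C4-2B alternative peak of 3.89-fold without H3K18ac. PEX2, a peroxisomal ubiquitin ligase, had H3K27ac of 3.93-fold in C4-2B only and H3K18ac of 2.42-fold in C4-2BER only, so that the marks were called in opposite lines.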
